A study of Mus musculus with 17 samples.

Results

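Tumours labelled as responders to doxorubicin were compared between day 10 and day 7 after the injection, with 3 arrays on each day, 6 of the 17 arrays of the series. The arrays were chosen by their titles, and the comparison covers 17674 of 45281 probes, those whose detection p-value was below 0.01 on 2 or more of the 17 arrays. Both groups are bulk tissue of MCA205, a transplanted mouse fibrosarcoma line, grown in wild-type C57bl/6 mice until palpable and injected into the tumour with doxorubicin (DX), an anthracycline that damages DNA. They differ by the day on which the tumours were taken. Responders were told from non-responders by shrinkage of the tumour, a division that the study's design text describes for day 7, while the day 10 tumours carry the same label. Other groups, used here for levels alone, are 3 day 2 PBS arrays, 2 day 2 DX arrays, 3 day 7 PBS arrays and 3 arrays of day 7 DX non-responders, where PBS is phosphate-buffered saline injected in place of the drug. Day 10 PBS tumours were not analysed here, so a difference between the days could not be set against PBS-injected tumours of the same day. The sources used here give neither the DX dose nor the age of the mice. The labels do not say whether each sample is a separate animal, so the p-values measure the spread between these samples.

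Doxorubicin can kill tumour cells in a way that draws in myeloid cells and lymphocytes, and the series asks how antigen-presenting cells reach tumours after chemotherapy by way of CCR2 and its ligand CCL2. In a shrinking tumour the transcripts of dying and surviving tumour cells, of infiltrating leukocytes and of stroma are measured together. Stress programmes of surviving cells include the heat shock response, in which the factor HSF1 raises cytosolic chaperones, and the unfolded protein response, which raises chaperones of the endoplasmic reticulum (ER). In bulk samples, fewer cells of a type and less RNA per cell cannot be told apart.

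One transcript passed the test as lower on day 10, and 0 passed it as higher. Abcc3 encodes MRP3, a membrane pump that exports organic anions and glucuronide conjugates, and it was 2.34-fold lower on day 10. The series-wide fit with limma called it alone, with a Benjamini-Hochberg adjusted p under 0.05, which is 0.00566% of the probes tested. That call was kept in 6 of 21 alternatives. At an unadjusted p under 0.05, 660 probes passed (3.73%), 291 higher (1.65%) and 369 lower (2.09%) on day 10. The 3 arrays of day 10 lay wholly above those of day 7 for 526 probes (2.98%) and wholly below for 767 (4.34%), 7.32% in all. Values below are log2 signals after normalization with neqc, and differences are day 10 minus day 7 on that scale. The median absolute difference was 0.12, and 96.5% of the probes differed by less than 0.5. A difference of at least 1 was found for 11 probes in the higher direction and 5 in the lower, of which 3 and 3 did not overlap between the days. The median standard error (SE) was 0.214, so the 95% interval of a typical probe reached 0.448 to either side of its estimate. The number of arrays sets that precision.

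Replicate 3 of each day carried skeletal muscle transcripts. Counts of calls, many list medians and the genes that turn on these arrays are therefore given with and without them. A list median given once is of all 6 arrays. The mean level of 30 muscle genes was 9.80 on day 7 replicate 3 and 9.52 on day 10 replicate 3. It was 6.88 on day 10 replicate 1 and between 4.91 and 6.39 on the 14 other arrays of the series. On both replicate 3 arrays, 126 probes lay more than 1 above each of the 4 other responder arrays, 37 of them probes of the muscle list and 3 of the list of skin epithelium. Across the kept probes the closest pair of the 6 arrays was replicate 3 of day 7 with replicate 3 of day 10 (r = 0.986). Pairs from the same day had r between 0.963 and 0.984, and pairs from different days between 0.962 and 0.986, so the arrays of one day were not closer to each other than to those of the other day. The median difference of the muscle list was 0.25, and 0.44 without replicate 3 of each day. It ran from -0.99 to 1.64 as each of the 6 arrays was left out in turn. The skin list had a mean level of 7.95 on day 7 replicate 3 and of 6.83 and 6.66 on day 10 replicates 3 and 2, against 5.24 to 5.68 on the other 3 responder arrays. Its median difference was 0.08 with all arrays and 0.50 without replicate 3 of each day. Adipoq, a marker of fat cells, had 6.75 on day 10 replicate 1, while none of the 5 other responder arrays was above the 4.796 of day 7 replicate 1. The mesenchymal transcripts Vim and Sparc lay between 11.58 and 12.10 and between 11.92 and 12.32 on the 6 arrays. Bulk signals do not tell whether these came from the fibrosarcoma cells or from stroma.

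**Figure D1:**
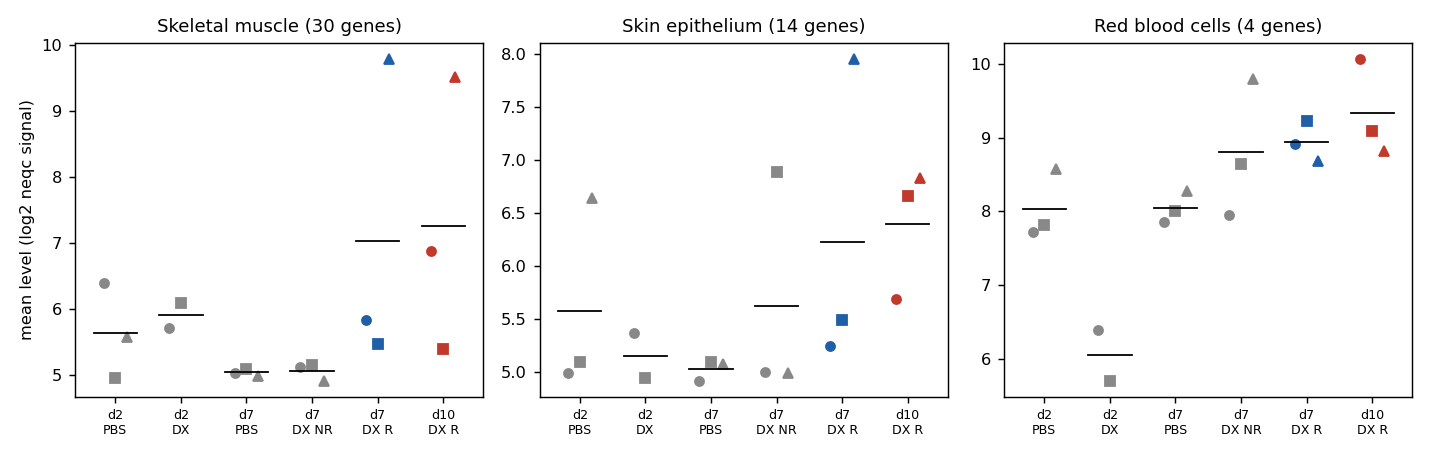
Mean log2 level of the measured genes of 3 marker lists on each of the 17 arrays, by group (d, day; R, responder; NR, non-responder), with circles, squares and triangles for replicates 1, 2 and 3 and bars for group means. The muscle level is 9.80 and 9.52 on replicate 3 of the day 7 and day 10 responders, and the red blood cell level is highest, at 10.07, on day 10 responder replicate 1.

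Without replicate 3 of each day, 0 probes passed at an adjusted p under 0.05 in limma, and the smallest adjusted p was 0.782. The median SE was 0.257 with 2 arrays a day, and 832 probes had an unadjusted p under 0.05 (4.71%), 2.18% of the probes in the higher and 2.52% in the lower direction. The direction was the same with and without these arrays for 14605 of the 17674 probes. On the 4 remaining arrays the days did not overlap for 13.3% of the probes in the higher and 15.5% in the lower direction. Genes named for this smaller set beside those described below were Itpk1, an inositol phosphate kinase, Hnrnpk, an RNA-binding protein, and Ppard, a nuclear receptor for fatty acids. Their differences were 0.81, 0.70 and 0.44 without replicate 3 and 0.58 ± 0.19, 0.42 ± 0.19 and 0.19 ± 0.13 with all arrays, with limma adjusted p above 0.99 in both.

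**Figure D2:**
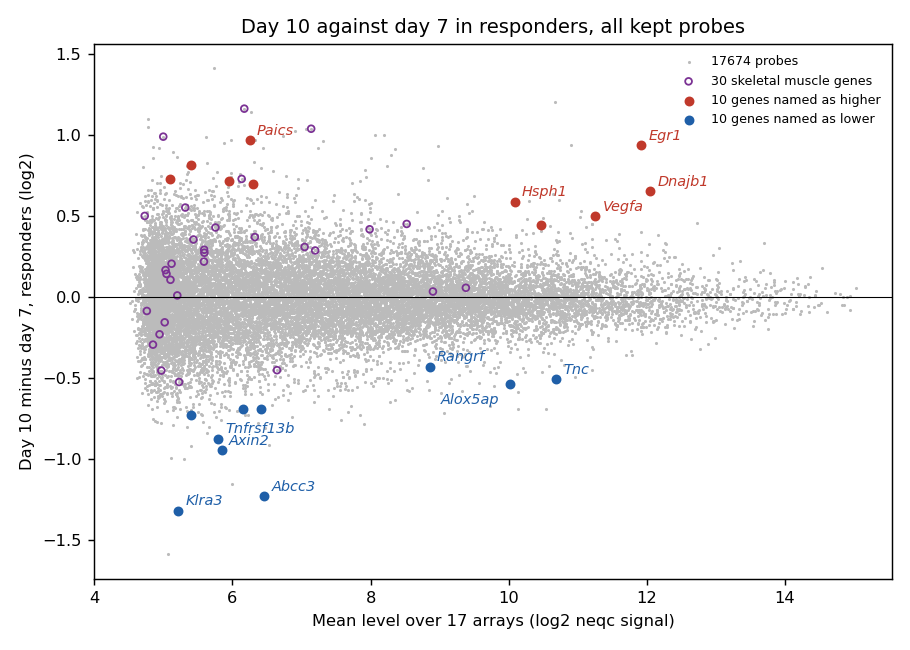
Difference between day 10 and day 7 in responders (log2) against the mean level over the 17 arrays for all 17674 kept probes (grey), with the 10 genes named in each direction (red, higher; blue, lower) and the 30 genes of the muscle list (open circles). Abcc3 at -1.23 is the single called probe, and Klra3, plotted below it, was not detected on day 10.

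Abcc3 had 6.84, 6.54 and 6.80 on day 7 replicates 1 to 3 and 5.81, 5.18 and 5.52 on day 10. Every day 10 array lay below every day 7 array, and 1 of the day 10 arrays was no longer detected. The difference was -1.23 ± 0.19 (SE, limma adjusted p = 0.0475; 95% interval -1.62 to -0.84). Without replicate 3 of each day it was -1.20 ± 0.24, with an adjusted p of 0.904. The call also went when any array other than day 10 replicate 1 was left out, with adjusted p from 0.109 to 0.477, and with the BeadChip as a fixed block (adjusted p = 0.0991), while it stayed with the BeadChip as a random block (adjusted p = 0.036). It was measured by 1 probe. In the other groups the mean was 6.98 in day 2 PBS, 6.87 in day 2 DX, 6.54 in day 7 PBS and 6.27 in non-responders, so the day 10 tumours had the lowest mean of the 6 groups. With the authors' processed values, which keep more background, the difference was -0.51.

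Beside Abcc3, 9 genes are named at the lower end, none past the adjusted threshold, and 4 of them are known from leukocytes. Klra3 encodes an inhibitory Ly49 receptor of natural killer (NK) cells. Its brighter probe had 5.80, 6.31 and 6.12 on day 7 and 4.73, 4.39 and 5.15 on day 10, where it was not detected on any array. It was at least 1.79-fold lower (limma adjusted p = 0.195), and the days also did not overlap without replicate 3. The gene's other probe was not detected on day 7, and probes of the Ly49 family can share targets, so which member was measured is uncertain. Tnfrsf13b, the receptor TACI for the cytokines BAFF and APRIL, had 6.03, 6.07 and 6.10 on day 7 and 5.25, 4.90 and 5.44 on day 10. The 3 day 7 arrays lay within 0.1 of each other and above all of day 10, with a difference of -0.87 ± 0.19 (adjusted p = 0.806). Tnfrsf13b was detected on 2 of the 3 day 10 arrays. Alox5ap, the protein that presents arachidonic acid to 5-lipoxygenase in leukotriene synthesis, had 10.19, 9.92 and 10.09 on day 7 and 9.85, 9.14 and 9.61 on day 10. The days did not overlap (-0.54 ± 0.14), and its second probe gave -0.43. Rac2, a GTPase of blood cells, differed by -0.69 ± 0.19, with 6.84, 6.43 and 6.27 on day 7 and 5.92, 5.68 and 5.87 on day 10. For these and for all genes named below other than Abcc3, Klra3, Tnfrsf13b and Egr1, the limma adjusted p over all probes was above 0.99.

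The other 5 genes have varied roles. Axin2, a negative feedback target of Wnt signalling, had 6.15, 5.97 and 5.63 on day 7 and 5.30, 5.14 and 4.49 on day 10, a difference of -0.94 ± 0.25, and was detected on 1 of the 3 day 10 arrays. Fzd6, a Wnt receptor, was detected on all 3 arrays of day 7 and none of day 10, at least 1.34-fold lower, while its other probe was detected on neither day. Tnc, the matrix glycoprotein tenascin C, differed by -0.51 ± 0.14, and its 3 other probes ranged from -0.58 to 0.30. Dgcr8, the RNA-binding partner of Drosha in microRNA processing, differed by -0.69 ± 0.19. Rangrf, a cofactor of the GTPase Ran, differed by -0.43 ± 0.11. All of them lay lower on every day 10 array than on any day 7 array.

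At the upper end, Egr1, an immediate-early transcription factor induced within minutes by growth factors and stress, had 11.47, 11.74 and 11.57 on day 7 and 12.73, 12.57 and 12.30 on day 10. Every day 10 array was brighter, by 0.94 ± 0.20 on average, or 1.92-fold (limma adjusted p = 0.806). Without replicate 3 the difference was 1.04. Day 2 PBS tumours reached 12.55 on their brightest array, within the day 10 range. Atf3, a stress-induced factor of the ATF family, had 6.31, 7.03 and 6.40 on day 7 and 7.89, 7.73 and 7.19 on day 10, a difference of 1.03 ± 0.34. Fos, a subunit of AP-1, had 9.04, 9.27 and 9.05 against 10.51, 9.75 and 8.94. Its days overlapped through replicate 3 of day 10, and the difference was 0.62 ± 0.28 with all arrays and 0.98 without replicate 3. Vegfa, the vascular growth factor, had 11.39, 11.03 and 10.99 on day 7 and 11.72, 11.65 and 11.56 on day 10. It differed by 0.50 ± 0.14 without overlap, and its second probe gave 0.47. Paics, an enzyme of purine synthesis, differed by 0.97 ± 0.30, Emd, the inner nuclear membrane protein emerin, by 0.72 ± 0.22, and the transmembrane protein gene Tmem19 by 0.70 ± 0.20. Paics and Emd were each detected on 2 of 3 arrays on day 7. The mean of Paics was 5.385 on day 7 and 6.35 on day 10, against 6.23 to 6.57 in the other groups. D130007C19Rik, an unnamed transcript, differed by 0.81 ± 0.22 and was detected on 1 of 3 arrays on day 7. Yy2, a zinc finger factor, was detected on all day 10 arrays and on no day 7 array, at least 1.26-fold higher. The 10 genes named at each end (at the upper end with Dnajb1, Hsph1 and Creld2, and without Atf3 and Fos) did not overlap between the days. Their direction therefore could not change without replicate 3 of each day. In that comparison, those measured on both days differed by 0.38 to 1.04 at the upper end (9 genes). At the lower end they differed by -1.20 to -0.37 (8 genes).

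**Figure D3:**
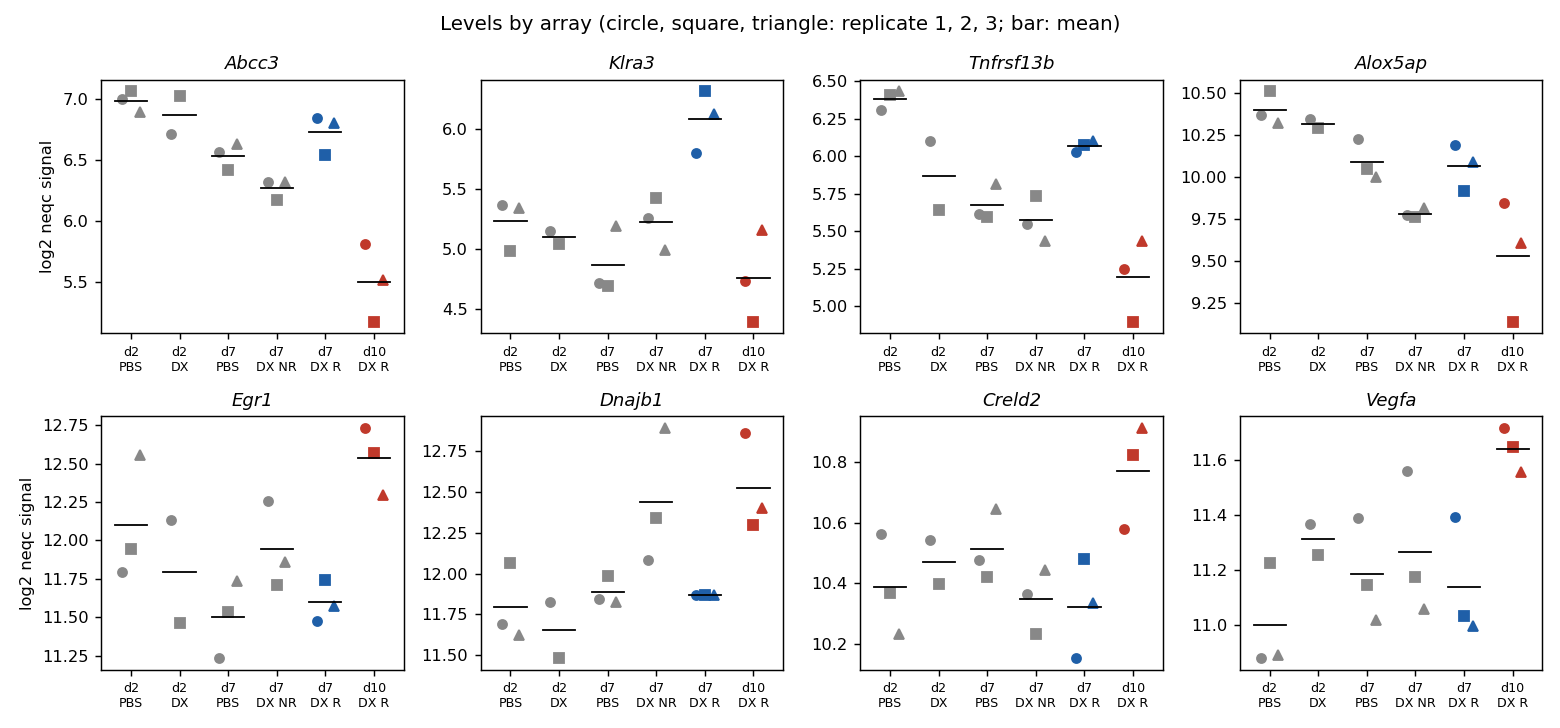
Log2 level of 8 of the named genes on each array, by group (d, day; R, responder; NR, non-responder), with circles, squares and triangles for replicates 1, 2 and 3 and bars for group means; the scales do not start at 0. In each panel the day 10 responders lie wholly on one side of the day 7 responders, and for Abcc3 they also lie below the 14 arrays of the other 5 groups.

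Chaperones of the heat shock and ER stress responses stood higher on day 10 as a group of small differences. Of 21 measured genes 20 had a positive difference, against 45% of the 10035 genes represented by their brightest probe. The median was 0.26, against -0.02 over those genes. At an unadjusted p under 0.05, 8 were higher (1.42% of all genes) and 0 lower, and for 5 the days did not overlap (2.55%). None passed the adjusted threshold. The median was 0.25 without replicate 3 of each day, 0.22 on BeadChip 1 and 0.27 on BeadChip 3, and lay between 0.23 and 0.35 as each array was left out. The mean level of the list was 9.35, 9.31 and 9.27 on day 7 and 9.63, 9.72 and 9.62 on day 10. In non-responders it ran from 9.37 to 9.70, which overlaps the day 10 arrays. It was 9.54 on both day 2 DX arrays, 9.34 to 9.56 in day 2 PBS and 9.53 to 9.60 in day 7 PBS, so the day 7 responders stood at the low end of the series.

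Among the cytosolic members, Dnajb1, an HSP40 co-chaperone induced by HSF1, had 11.87 on each of the 3 day 7 arrays and 12.86, 12.30 and 12.40 on day 10. The difference was 0.65 ± 0.17. Hsph1, the HSP110 nucleotide exchange factor of HSP70, had 9.90, 9.97 and 9.99 against 10.81, 10.44 and 10.39, a difference of 0.59 ± 0.18. Hspa1a and Hspa1b encode the stress-inducible HSP70 in near-identical copies, which their probes may not separate. Hspa1a had 5.11, 6.35 and 5.81 on day 7 and 7.53, 6.17 and 6.99 on day 10, with overlap, and differed by 1.14 ± 0.43. This gene was chosen after its values were seen. Among the ER members, Creld2, a protein induced by ER stress, had 10.15, 10.48 and 10.34 on day 7 and 10.58, 10.82 and 10.91 on day 10. Every day 10 array was brighter, with a difference of 0.45 ± 0.12, and the second probe gave 0.16. Hspa5, the ER chaperone BiP, had 6.39, 6.58 and 6.10 against 6.53, 7.58 and 6.84. Day 10 replicate 1 lay inside the day 7 range, and the difference was 0.63 ± 0.22. Pdia4, a protein disulfide isomerase of the ER, differed by 0.30 ± 0.13, and by 0.49 without replicate 3. The ER chaperone Hsp90b1 (0.03) and the co-chaperone Dnajc3 (-0.04) were close to 0.

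The promoters of 3 of these genes are shown because they hold the motifs by which the heat shock and ER stress factors are known to act on chaperone genes. Each is the 250 bases before the gene's start, from RefSeq, build GRCm38.p6, written 5′ to 3′ on the gene's strand. Capitals in Creld2 (chr15:88819396-88819645, plus strand) and Hspa5 (chr2:34771840-34772089, plus strand) mark a match to the ER stress response element, CCAAT followed by 9 bases of any kind and CCACG, on either strand. Capitals in Hspa1a (chr17:34972157-34972406, minus strand) mark a match to GAANNTTC, the core of the heat shock element.
Creld2: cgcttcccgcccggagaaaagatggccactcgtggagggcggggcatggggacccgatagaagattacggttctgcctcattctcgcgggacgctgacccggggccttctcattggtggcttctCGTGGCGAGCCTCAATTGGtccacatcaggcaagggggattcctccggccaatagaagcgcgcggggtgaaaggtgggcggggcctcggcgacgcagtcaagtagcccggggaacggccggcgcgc
Hspa5: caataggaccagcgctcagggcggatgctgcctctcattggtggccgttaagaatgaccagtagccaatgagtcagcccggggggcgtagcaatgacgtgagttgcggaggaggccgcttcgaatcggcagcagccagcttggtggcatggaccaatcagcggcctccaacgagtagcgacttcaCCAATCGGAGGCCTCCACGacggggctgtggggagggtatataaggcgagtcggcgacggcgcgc
Hspa1a: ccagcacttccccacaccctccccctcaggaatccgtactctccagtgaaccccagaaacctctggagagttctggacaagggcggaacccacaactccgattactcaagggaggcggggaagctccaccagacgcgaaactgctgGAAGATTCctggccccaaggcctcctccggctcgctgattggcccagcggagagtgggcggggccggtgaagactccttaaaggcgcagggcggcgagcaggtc

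Both strands were searched. Over all promoters each window was counted, whereas a chaperone gene counted where any of its windows matched. The list was chosen as known heat shock and ER chaperones, so its shares are no test. The ER stress response element was found in 0.113% of 32851 promoter windows of the same length, and in 6 of the 18 measured chaperone genes that have an entry. These were Calr, Creld2, Dnajc3, Hsp90b1, Hspa5 and Pdia6. GAANNTTC was found in 6.69% of all windows and in 5 of the 18, namely Hspa1a, Hspa1b, Hspb1, Hspd1 and Hspe1. None of the 3 windows shown held a match to the other motif, and GAANNTTC reads the same on both strands. Dnajc3 and Hsp90b1, which hold the ER element, had differences near 0, so a match did not go with a higher day 10 level in every gene. Dnajb1, Hsph1 and Pdia4 had no match in the window, which says only that these letters are not there.

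Genes of NK and cytotoxic lymphocytes, which kill by perforin and granzymes, had a median difference of -0.49 over 14 measured genes. At an unadjusted p under 0.05, 4 were lower (2.36% of all genes) and 0 higher. The days did not overlap for 5 in the lower direction (4.54%). Klra3, already named above, is in both counts. The median was -0.76 without replicate 3 of each day, -0.29 on BeadChip 1 and -0.59 on BeadChip 3, and lay between -0.64 and -0.38 as each array was left out. Klrd1, the CD94 subunit of NKG2 receptors, had 9.19, 9.43 and 9.23 on day 7 and 8.42, 8.51 and 8.99 on day 10. Klre1, a further lectin-like NK receptor, had 7.35, 7.51 and 7.31 against 6.34, 6.30 and 7.19. In both genes replicate 3 was the highest of the day 10 arrays, and the differences were -0.65 ± 0.27 and -0.78 ± 0.34. Without replicate 3 that of Klrd1 was -0.85. Il18r1, a chain of the interleukin 18 receptor, differed by -0.65 ± 0.31. Of the 14 genes 4 were positive, among them some effector genes. Prf1, perforin, had 9.16, 9.41 and 9.49 on day 7 and 9.49, 10.20 and 9.72 on day 10 (0.45 ± 0.21), while its second probe gave -0.08. Gzmd and Gzme, granzymes of the same cluster, differed by 0.40 ± 0.51 and 0.43 ± 0.57. Both were highest on day 10 replicate 2 (12.80 and 9.13), and without that array the difference of Gzme was -0.13. Ctsw, a protease of cytotoxic lymphocytes (-0.53 ± 0.28, and -0.80 without replicate 3), and the granule protein gene Nkg7 (-0.46 ± 0.33 and -0.75) were lower on average, each with overlap through day 10 replicate 3. These 5 genes were chosen after their values were seen.

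T cell genes had a median difference of -0.34 over 14 genes and of -0.47 without replicate 3 of each day, and 2 of the 14 were lower at an unadjusted p under 0.05 (2.36% of all genes). The differences of 4 were positive, up to 0.25. Il7r, the interleukin 7 receptor of naive and memory T cells, had 8.52, 8.81 and 8.44 on day 7 and 8.11, 7.66 and 8.45 on day 10. The days overlapped through replicate 3, and the difference was -0.52 ± 0.21. Bcl11b, a T lineage transcription factor, had 5.96, 5.66 and 6.62 against 5.47, 5.42 and 5.48 (-0.63 ± 0.28). Cd6, a T cell adhesion receptor, differed by -0.51 ± 0.25 and Satb1, a chromatin organiser of T cells, by -0.65 ± 0.35. Cd69, an early activation marker of lymphocytes, differed by -0.36 ± 0.22 with all arrays and by -0.85 without replicate 3.

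Monocyte and macrophage genes were lower in 23 of 24 cases, with a median of -0.26, or -0.33 without replicate 3. At an unadjusted p under 0.05, 7 were lower (2.36% of all genes) and 0 higher, and for 3 the day 10 arrays lay lower without overlap (4.54%). The size differed between BeadChips, with a median of -0.01 on BeadChip 1 (2 arrays a day) and -0.73 on BeadChip 3 (1 array a day), and the part of the BeadChip in this was not tested. The list's mean level was 9.56, 9.11 and 9.20 on day 7 and 9.21, 8.82 and 9.10 on day 10, so day 7 replicate 1 was highest and day 10 replicate 2 lowest, and these are the arrays of BeadChip 3. Trem2, a lipid-sensing receptor of macrophages, had 8.54, 8.45 and 8.70 on day 7 and 8.26, 7.64 and 8.19 on day 10 (-0.53 ± 0.16). C1qa, a chain of complement C1q, had 7.73, 7.17 and 7.42 against 7.01, 7.05 and 6.57 (-0.56 ± 0.19). Both were lower on every day 10 array. Ms4a7, a membrane protein of macrophages, differed by -0.46 ± 0.17 and Fcer1g, the signalling chain of Fc receptors, by -0.36 ± 0.14, each with overlap. Tlr13, a toll-like receptor for bacterial ribosomal RNA in mice, differed by -0.67 ± 0.23 with all arrays and by -1.01 without replicate 3. Ch25h, cholesterol 25-hydroxylase, gave -0.53 ± 0.19 and -0.81, and Ebi3, a subunit of interleukins 27 and 35, gave -0.73 ± 0.21 with 6.81, 6.61 and 6.65 on day 7 and 5.82, 5.61 and 6.46 on day 10.

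No gene of the CCR2 axis, named in the title of the series, passed the adjusted threshold. Ccl2 had 9.99, 9.46 and 8.99 on day 7 and 9.02, 9.96 and 8.84 on day 10. The days overlapped, and the difference was -0.21 ± 0.27 (95% interval -0.78 to 0.36). Ccl7, a further CCR2 ligand, had 11.30, 10.77 and 10.46 against 10.33, 10.74 and 10.82, a difference of -0.21 ± 0.21 (-0.65 to 0.23), with -0.58 from its second probe. Ccl12, the mouse ligand also called MCP-5, had 10.23, 9.51 and 9.08 against 8.91, 9.38 and 9.13. Its difference was -0.46 ± 0.21 (limma unadjusted p = 0.0443) with overlap. Without replicate 3, Ccl12 differed by -0.72 and Ccl7 by -0.50, both lower without overlap, as were 15.5% of all probes. Ccl2 (-0.24) still overlapped there. Day 7 replicate 1 was the brightest of the 6 arrays for all 3 ligands. Without that array the differences were 0.045 for Ccl2 and 0.019 for Ccl7, and without day 10 replicate 3 that of Ccl2 was 0.0087. The day 2 DX means of 10.92 for Ccl2, 12.21 for Ccl7 and 10.75 for Ccl12 were above every responder array of either day. Ccr2 was not detected on any of the 6 arrays, so no fold is given.

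**Figure D4:**
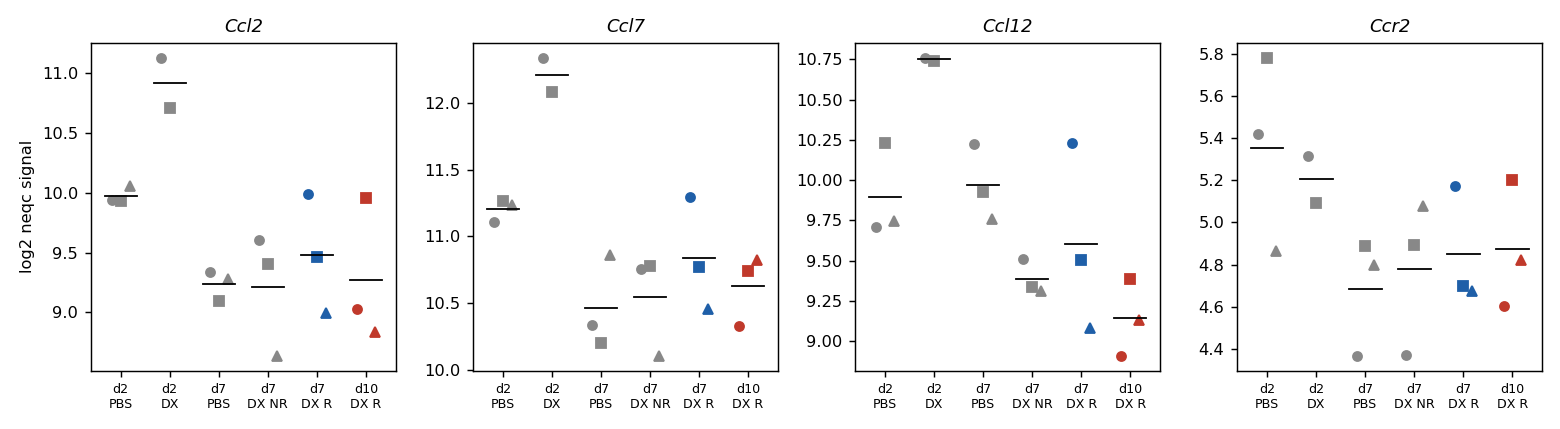
Log2 level of the CCR2 ligands Ccl2, Ccl7 and Ccl12 and of Ccr2 on each array, by group (d, day; R, responder; NR, non-responder), with circles, squares and triangles for replicates 1, 2 and 3 and bars for group means; the scales do not start at 0. The 2 responder groups overlap in all panels, and Ccr2 was not detected on any responder array.

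Other chemokines had a median difference of -0.22 over 18 genes, with and without replicate 3, and 2 of them were lower at an unadjusted p under 0.05 (2.36% of all genes) and 0 higher. The differences of 5 were positive, up to 0.52. Ccl5, a chemokine made by T and NK cells, had 10.82, 10.78 and 10.81 on day 7 and 9.54, 10.49 and 10.32 on day 10. All day 10 arrays were lower, and day 10 replicate 1 stood apart from the other pair (-0.69 ± 0.30). The platelet chemokine Pf4 had 10.38, 10.35 and 10.23 against 9.57, 9.81 and 9.93 (-0.55 ± 0.27), without overlap. Ppbp, a further platelet chemokine, had 6.03, 6.37 and 6.50 against 5.24, 4.56 and 6.10, with overlap. Cxcl16, a ligand of CXCR6, differed by -0.33 ± 0.14. With all arrays, interferon responses showed small differences. The type I list had a median of -0.13 over 30 genes and -0.27 without replicate 3. With all arrays, 1 gene was lower at an unadjusted p under 0.05 (2.36% of all genes), Ifit2, an antiviral RNA-binding protein (-0.32 ± 0.14). Bst2, tetherin, pointed the other way (0.52 ± 0.26), with every day 10 array above day 7. In the comparison without replicate 3, 4 genes of the type I list were lower at an unadjusted p under 0.05 (2.52% of all probes) and 1 higher (2.18%). There, 16 of its 30 genes lay lower without overlap (15.5% of all probes) and 1 higher (13.3%). The interferon gamma list had a median of -0.09 over 16 genes and 0 at an unadjusted p under 0.05. Without replicate 3 its median was -0.33, with 1 gene lower at that level (2.52% of all probes) and 6 lower without overlap (15.5%). Ifng itself differed by -0.59 ± 0.29 and was detected on 3 arrays of day 7 and 1 of day 10, while its second probe gave 0.06. The class I presentation list had a median of 0.01 over 19 genes, 10 of them positive, and of -0.0033 without replicate 3. For 5 the day 10 arrays lay below day 7 without overlap (4.54% of all genes), among them Psme1 (-0.25 ± 0.13), an activator subunit of the proteasome, and Tap1 (-0.30 ± 0.21), the peptide transporter. The class II list had a median of 0.00 over 10 genes, with 0.34 on BeadChip 1 and -0.53 on BeadChip 3, and of -0.12 without replicate 3. Of 12 genes of dendritic cells and costimulation, 1 was higher at an unadjusted p under 0.05 (1.42% of all genes). It was Tnfsf9, the ligand of the costimulatory receptor 4-1BB (0.51 ± 0.21).

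**Figure D5:**
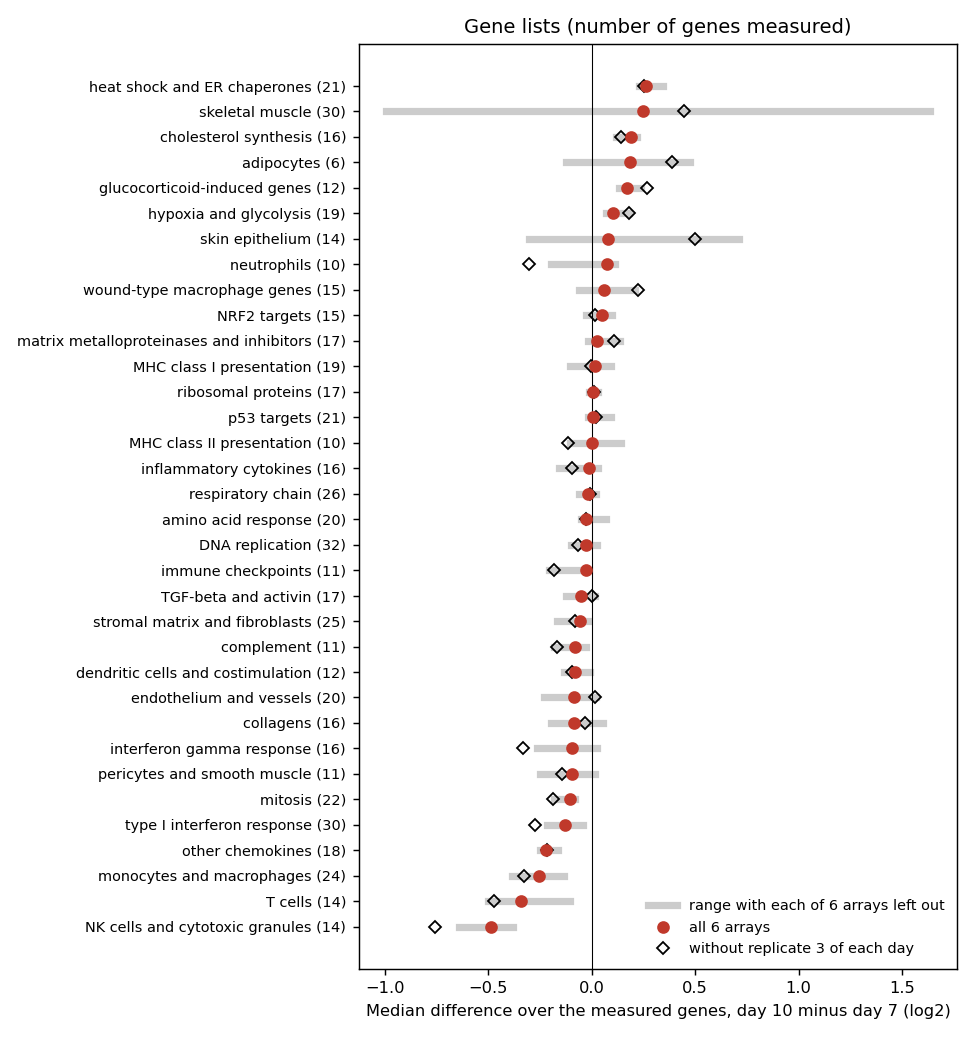
Median difference over the measured genes of each list with at least 5 of them, day 10 minus day 7 in responders (log2), with all 6 arrays (red), without replicate 3 of each day (open diamonds), and the range as each of the 6 arrays was left out (grey bars). The chaperone list is at 0.26 and the NK list at -0.49, and the muscle list spans -0.99 to 1.64.

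Genes of hypoxia and glycolysis had a positive difference in 14 of 19 cases and a median of 0.10, or 0.18 without replicate 3. It was -0.0056 on BeadChip 1 and 0.39 on BeadChip 3. At an unadjusted p under 0.05, 4 were higher (1.42% of all genes) and 0 lower. Beside Vegfa these were Egln3, an oxygen-sensing prolyl hydroxylase with 10.11, 10.53 and 10.17 on day 7 and 11.05, 11.00 and 10.53 on day 10 (0.59 ± 0.22), Ndrg1, a stress gene induced by hypoxia (0.45 ± 0.19), and Pfkp, a phosphofructokinase (0.48 ± 0.21). The lowest difference of the list was -0.11. Cholesterol synthesis genes were positive in 14 of 16 cases with a median of 0.19, or 0.14 without replicate 3. Of these, 1 was higher at an unadjusted p under 0.05 (1.42% of all genes), Fdps, which makes farnesyl diphosphate (0.29 ± 0.13). Among 15 NRF2 targets 1 was higher at an unadjusted p under 0.05 (1.42% of all genes), Hmox1, haem oxygenase 1. It had 7.82, 8.02 and 8.10 on day 7 and 8.30, 9.19 and 8.26 on day 10 (0.60 ± 0.26). The 4 measured red blood cell genes were all positive with a median of 0.48, and day 10 replicate 1 had the highest mean level of that list among all arrays (10.07). Without that array the median was 0.039. Errfi1, a feedback inhibitor of EGF receptors on the glucocorticoid list, differed by 0.40 ± 0.14. In the amino acid response, Atf3 and Iars, a tRNA synthetase (0.25 ± 0.12), were higher at an unadjusted p under 0.05 (1.42% of all genes). The median over its 20 genes was -0.03. Among p53 targets, which DNA damage induces, 0 of 21 had an unadjusted p under 0.05, and the median was 0.01.

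Mitotic genes were lower in 19 of 22 cases with a median of -0.10, and -0.19 without replicate 3. Plk1, a mitotic kinase, had 10.87, 10.70 and 10.79 on day 7 and 10.43, 10.13 and 10.54 on day 10 (-0.42 ± 0.13), and Mad2l1, a spindle checkpoint protein, differed by -0.29 ± 0.11. Both lay lower on every day 10 array. DNA replication genes had a median of -0.03 over 32 genes. At an unadjusted p under 0.05, 1 was lower (2.36% of all genes), Rrm1, a subunit of ribonucleotide reductase (-0.26 ± 0.11). Without replicate 3 the median was -0.07, and 3 were lower at that level (2.52% of all probes). Among 25 genes of stromal matrix and fibroblasts the median was -0.06, or -0.08 without replicate 3, and 5 were lower at an unadjusted p under 0.05 (2.36% of all genes), for all of which but Lum the days did not overlap (4.54% of all genes lay lower without overlap). These were Tnc, the crosslinking enzymes Lox and Loxl1, the proteoglycan Lum and the microfibril protein Mfap4. Loxl1 had 11.71, 11.71 and 11.67 on day 7 and 11.19, 11.33 and 11.50 on day 10 (-0.36 ± 0.11), Lox differed by -0.51 ± 0.23, and Lum by -0.91 ± 0.31. Mfap4 was detected on 2 arrays of day 7 and none of day 10, at least 1.16-fold lower. Collagens had 0 of 16 genes at an unadjusted p under 0.05 and a median of -0.09. Mmp2, a gelatinase, differed by -0.21 ± 0.09, and Tgfb3, a TGF-beta ligand, by -0.36 ± 0.16.

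In the inflammatory cytokine list the median was -0.01 over 16 genes, and -0.09 without replicate 3. Its 2 genes with an unadjusted p under 0.05 were Ptgs2, the inducible cyclooxygenase, and Csf1, the macrophage growth factor (-0.49 ± 0.23). Ptgs2 was detected on 0 arrays of day 7 and 2 of day 10 and was at least 1.04-fold higher. Of all genes, 1.42% were higher and 2.36% lower at that unadjusted level. Of 11 complement genes 2 were lower at that level (2.36% of all genes), both C1q chains already counted among the macrophage genes. The median was -0.08, or -0.17 without replicate 3. Neutrophil genes had a median of 0.07 over 10 genes with all arrays and of -0.30 without replicate 3. Immune checkpoint genes had -0.03 and -0.18 over 11 genes. Medians were -0.09 over 20 genes of endothelium (0.01 without replicate 3) and -0.10 over 11 of pericytes and smooth muscle (-0.14 without). The median was 0.06 over 15 genes of wound-type macrophages (0.22 without replicate 3). It was -0.02 over 26 genes of the respiratory chain and 0.01 over 17 ribosomal protein genes. Among the latter, Rpl23 alone had an unadjusted p under 0.05 (0.33 ± 0.13), where 1.42% of all genes were higher. The lists of B cells (0.14, and 0.31 without replicate 3), mast cells (-0.27 with and without) and nerve (-0.16 and -0.21) had 2, 4 and 4 measured genes. Of 6 measured fat cell genes, Scd1, a fatty acid desaturase also made by other cells, differed by 0.36 ± 0.14.

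Detection sets a threshold on the same signals, so it is not independent of the differences above. Of the 17674 kept probes, 12466 were detected on all 6 arrays and 793 on none. Probes detected on all 3 day 10 arrays and on no day 7 array numbered 24, and the reverse held for 31. Among the first were Yy2 and Erp44, an ER chaperone of the thioredoxin family. Among the second were Klra3, Fzd6 and Bcl2l1, the gene of the survival protein BCL-XL. Erp44 and Bcl2l1 were chosen after their values were seen.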

How the data were processed

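Bulk RNA of 17 tumour samples was measured on Illumina mouse BeadChips. The authors deposited a linear signal intensity and a detection p-value per probe and array, not normalized, per the file headers. GenomeStudio 2011.1 stands in the submitters' processing notes, without settings. The authors' processed intensity, a further deposited table, is linear with the same maximum in every column, and served after log2 as an alternative. No genome build is named there.

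Signals were normalized together with neqc (limma 3.58.1, R 4.3.3), which infers the background from the detection p-values, adds an offset of 16, quantile-normalizes and takes log2. The offset and any background left understate differences of dim probes. A probe was kept where its detection p-value fell below 0.01 on 2 or more arrays. All 17 arrays and their 6 groups entered 1 limma fit, moderated along a mean-variance trend (11 residual and 7.65 prior degrees of freedom), the p-values are two-sided, and p-values were adjusted over all 17674 probes. The fit was tested on simulated data. Platform annotation gave 1 symbol to 34885 probes, several to 18 and none to 10378; of the first, 34807 matched a RefSeq gene table by gene ID. A gene is represented by its brightest kept probe. A probe not detected on any array of a group has a bound for its fold, against the lowest detected signal per array.

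Per array, 13728 to 15568 probes were detected, and 14070 to 14917 on the 6 arrays compared. BeadChip 1 held day 7 replicates 2 and 3 and day 10 replicates 1 and 3, and BeadChip 3 held day 7 replicate 1 and day 10 replicate 2. Named genes are up to 15 called genes in each direction, filled to 10 by the smallest p among genes whose days did not overlap and whose brighter day was detected throughout, 6 in each direction without replicate 3 of each day, up to 4 of each of 39 gene lists, and the CCR2 axis. The 39 lists hold textbook markers, and are described by counts and medians. The gene lists, the rule and the comparison were chosen with earlier results of these data known. Alternatives covered background correction, normalization, probe filter, BeadChip, replicate block, array weights and each array left out.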

Additional observations from a re-analysis of the deposited data

How the results depend on the processing

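Of 21 alternatives to the fit of all 6 arrays, 6 kept the call of Abcc3. With 0 called were normexp with an offset of 50 and quantile normalization, no background correction, the 75th percentile in place of quantiles (adjusted p of Abcc3 0.0503), the authors' processed values, no filter on dim probes (0.0503), the 6 arrays alone, BeadChip as a fixed block, BeadChip 1 alone, array weights, and the 4 arrays without replicate 3 of each day. With each array left out, 0 to 1 probes were called. Unadjusted p under 0.05 was reached by 463 to 897 probes in fits of the same 17674 probes. The difference of Abcc3 ran from -1.38 to -0.50, smallest without background correction, where it keeps its background. Without replicate 3 of each day, 0 probes were called in the 6 alternatives that keep all 4 arrays. With a further array left out, 0 to 7 were called, the 7 without day 10 replicate 1, where a single day 10 array remains, whose spread is taken from the other groups. Of 83 genes named with a difference, 77 kept their direction under every alternative that tested them. For the genes chosen because their days did not overlap, leaving out arrays could not reverse the direction, so the count is partly fixed by that choice. With each array left out, Ccl2 ranged from -0.55 to 0.045, Ccl7 from -0.40 to 0.019, Gzme from -0.13 to 0.80, Hsp90b1 from -0.042 to 0.072 and Dnajc3 from -0.091 to 0.031. On BeadChip 1 Gzmd gave -0.028 and Gzme -0.35, with array weights Gzme gave -0.0058, and without replicate 3 of each day Hsp90b1 gave -0.0063. The causes were not tested. Same-numbered replicates of the 2 days had correlations of -0.04, 0.12 and 0.51 between their deviations. These few values cannot settle whether the numbers pair the samples, as both replicate 3 arrays carried muscle transcripts. With a replicate block, 1 probe was called (Abcc3, adjusted p = 0.0303), and 0 without replicate 3 of each day. With 3 arrays a day, the 95% interval of a typical probe included 0 where its difference was under about 0.448 in size.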

Other observations

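Without replicate 3 of each day and without day 10 replicate 1, 7 probes passed an adjusted p under 0.05 in limma, 4 of them higher and 3 lower on the single remaining day 10 array, replicate 2. Those with a symbol were Krt27, a keratin of the hair follicle, and Gm7609 in the higher direction, and Lpxn, a leukocyte adaptor of focal adhesions, and Ms4a6d, a macrophage membrane protein, in the lower. Krt27 had 6.95 on day 10 replicate 2 and 4.32 to 4.75 on the other 5 arrays. Ms4a6d had 10.14 on that array and 11.11 to 11.35 on the others, and Lpxn 7.46 against 8.29 to 8.71. Without replicate 3 and without day 10 replicate 2, 1 probe was called, Myh8, a myosin heavy chain of developing muscle, with 8.75 on day 10 replicate 1 and 6.16 and 6.07 on day 7 replicates 1 and 2. These genes were chosen after their values were seen.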
